A study of Tribolium castaneum with 2 samples.

Results

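Of 16542 genes with a TC identifier in the red flour beetle, T. castaneum, 6935 were above 0 in both libraries with a mean of 5 to 1000 FPKM, and 50 of these were at least 4-fold lower under hypoxia. These 50 genes are the subject here. They were chosen by their summed level in each library: a log2 ratio of hypoxia over normoxia of -2 or lower, after adding 0.1 FPKM to both values. Their ratios are therefore a description of what was selected and were not tested. The share called by this rule was 0.721% of the genes that pass the filter on levels, and 32 genes were raised 4-fold or more by the mirrored rule.

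RNA came from wild type, full-grown last-instar larvae, 20 days from oviposition. The hypoxia library (TC2) was made after 12 h in a sealed bottle holding 20 larvae and flushed with a mixture of 2% O2, 18% CO2 and 80% N2, and the normoxia library (TC1) after 12 h without that mixture. Low O2 cannot be told apart from high CO2 in this design. The sample titles carry the codes TC1 and TC2 only, and which code is which condition was taken from a legend in the study's supplement. There was 1 library per condition, so no value below has a replicate, an SD or a p-value, and the spread among animals is unknown. The RNA is that of pooled larvae, in which fewer cells of a type and less RNA per cell cannot be told apart.

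FPKM, fragments counted per length of transcript and per mapped fragments, was estimated by Cufflinks, which keeps the annotated (reference) transcripts and adds transcripts that it assembles from the reads of each library. Gene levels were obtained by adding the FPKM of the reference transcript and of the assembled transcripts that share most of their exonic bases on the strand with that gene. Because a short transcript and a long transcript count alike in such a sum, each gene was also given a weighted level, in which every transcript counts in proportion to the coding bases of the gene that it covers. An assembled transcript counted there for every gene that it covers, also where the sum gave it to another gene. A weighted level can therefore exceed the sum. Of the TC reference transcripts, 99.5% had a length divisible by 3, so these models hold no untranslated regions and their length is a coding length. The files carry no read counts per gene, and the read totals that the study states for its libraries were not used here. The Cufflinks interval, read as 2 standard errors on either side, is the only measure of error, and it covers counting and the sharing of fragments between transcripts within 1 library.

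Most of the 50 genes carry no name in the study's annotation. The 3 that do encode extracellular enzymes. Serine proteases of insects include the trypsins and chymotrypsins that digest protein in the larval midgut, as well as enzymes of the hemolymph that act in immune cascades. Chitinases cleave chitin, the polymer of the cuticle and of the lining of the gut, and are needed when the larva sheds its cuticle at a moult.

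Levels were low under hypoxia. Across the 50 genes the hypoxia level ranged from 0.364 to 106.8 FPKM with a median of 3.46 FPKM, against 9.20 to 641.7 FPKM with a median of 25.2 FPKM in normoxia. Over all genes that pass the filter the medians were 28.4 FPKM under hypoxia and 29.8 FPKM in normoxia. The normoxia median of the 50 was thus near that of the filtered genes. The rule itself used these levels: a mean of at least 5 FPKM with a 4-fold drop keeps out genes low in normoxia. In the hypoxia library 34 of the 50 were under 5 FPKM and 5 were under 1 FPKM, whereas 8 were at 100 FPKM or more in normoxia. Together they held 0.0874% of the summed FPKM of the filtered genes under hypoxia and 0.645% in normoxia. The median log2 ratio was -2.57, beside -0.07 over all genes that pass the filter, 11 genes were at least 8-fold lower and 6 were at least 16-fold lower. The Cufflinks intervals of the libraries were separate for 48 of the 50. These same 48 make up the 0.692% of filtered genes that are both 4-fold lower and separate. The share of all filtered genes with separate intervals is not given here. The exceptions among the 50 were TC016021 and TC015735, with coding lengths of 222 and 207 bases. TC016021 was at 2.60 FPKM under hypoxia and 15.6 FPKM in normoxia, and TC015735 at 2.43 and 10.5 FPKM in the same order. The half-width of the interval had a median of 33.99% of the value under hypoxia and 19.7% in normoxia, against 13.2% and 13.5% over the filtered genes.

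**Figure D1:**
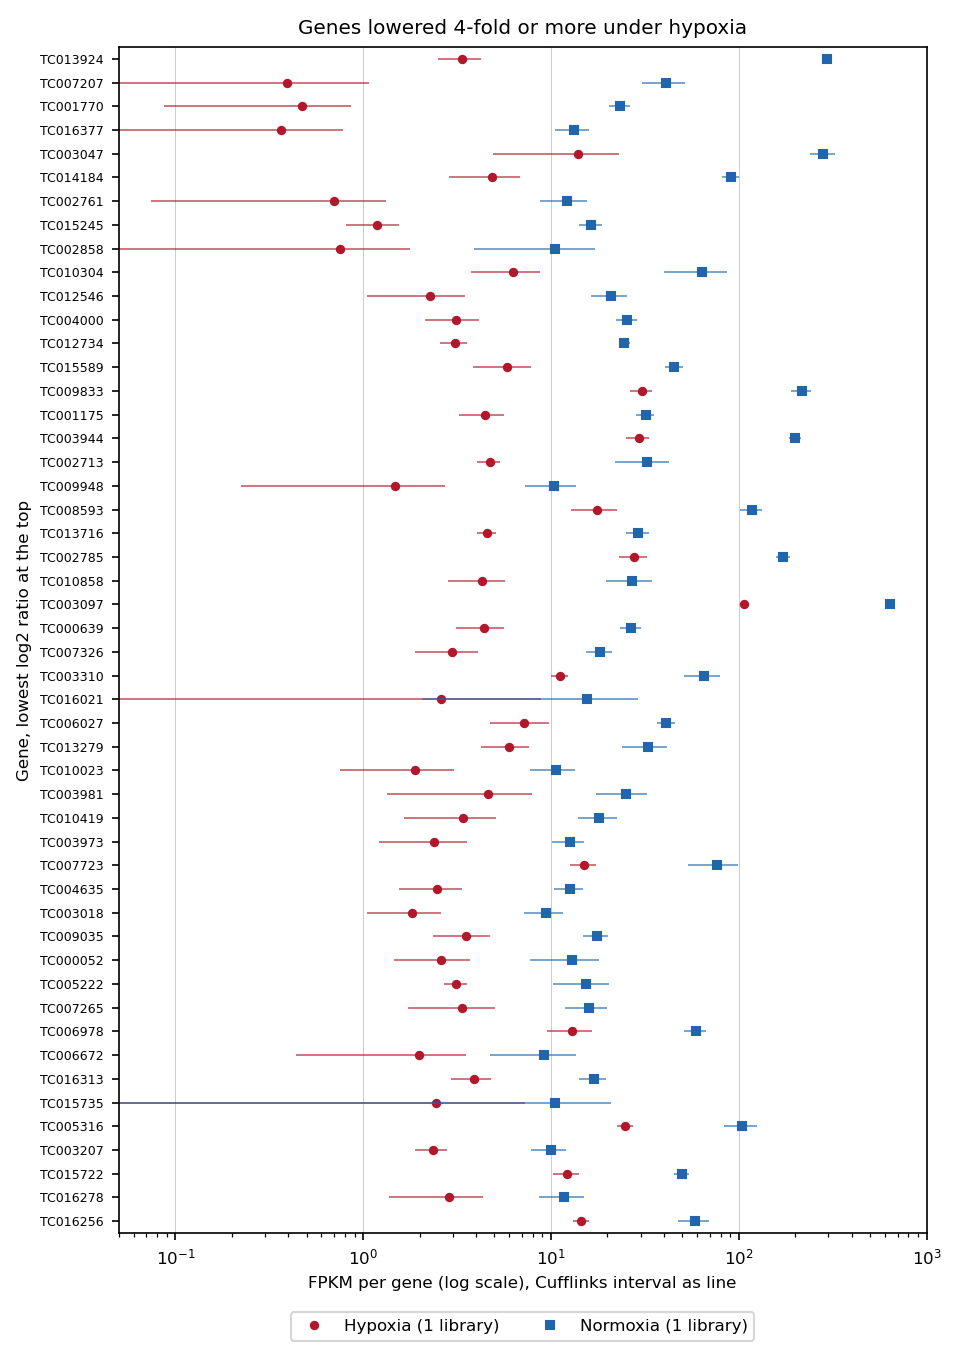
FPKM of each of the 50 genes under hypoxia (red circles) and in normoxia (blue squares), 1 library each, on a log axis, with the Cufflinks interval as a line (lines that reach 0 run to the left edge). The genes are sorted by log2 ratio with the lowest at the top, and the intervals of TC016021 and TC015735 overlap between the libraries.

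The 3 named genes were 4.95- to 7.77-fold lower under hypoxia. Every transcript behind their values covers all of the coding bases, and the weighted level equalled the sum. TC002785, annotated as serine protease P40, was at 27.7 FPKM under hypoxia (interval 23.0 to 32.4) and at 173 FPKM in normoxia (158.5 to 186.6), a log2 ratio of -2.63 with a range of 2 standard errors from -2.91 to -2.36. It has 7 exons and 780 coding bases on ChLG3 (12844432 to 12845513). TC004635, serine protease P53, was at 2.46 FPKM under hypoxia (1.55 to 3.38) and at 12.6 FPKM in normoxia (10.4 to 14.8), a log2 ratio of -2.31. It lies on ChLGX (5658165 to 5660834). For both proteases no transcript was assembled in either library, so the value is that of the reference transcript.

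The chitinase TC012734 was at 3.08 FPKM under hypoxia (2.57 to 3.58) and at 24.6 FPKM in normoxia (22.9 to 26.2), 7.77-fold lower. It is a large gene of 15 exons and 8139 coding bases on ChLG9 (18597260 to 18606312). Its reference transcript had 0.933 FPKM under hypoxia and 8.99 FPKM in normoxia. Each library also had its own assembled transcript over 100% of the coding bases. That of the hypoxia library had 14 exons and 2.14 FPKM. That of the normoxia library had 16 exons and 15.6 FPKM, and it also reached TC012733. Both the reference and the assembled part of the value of TC012734 were thus lower in the hypoxia library. The weighted log2 ratio equalled the summed one at -2.96.

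The study also names other genes of these families, and of families of digestion and transport. These names come from a list that the study drew up on these same libraries, so the lists are not independent of the direction. Of 6 named serine proteases, all of which pass the filter, 2 were lowered 4-fold or more and 0 raised, with a median log2 ratio of -1.06. TC009602, serine protease P96, was the exception in direction, at 911.9 FPKM under hypoxia and 578.2 FPKM in normoxia. Of 5 genes for chitinases and chitin-binding proteins, 1 was lowered 4-fold and 0 raised, and the median log2 ratio was -1.66, with TC011140, a cuticular protein analogous to peritrophins, nearest to the threshold at 17.6 FPKM under hypoxia and 63.2 FPKM in normoxia. Of 5 cathepsins, lysosomal or digestive cysteine proteases, 4 pass the filter, and 0 of those 4 were lowered or raised 4-fold. The fifth, TC009448, a cathepsin L under the filter, was at 0.340 FPKM under hypoxia and 3.12 FPKM in normoxia, a log2 ratio of -2.87. TC002954, a cathepsin B, was at 135.5 FPKM under hypoxia and 35.1 FPKM in normoxia, and TC009362, a cathepsin L, at 27.5 and 63.6 FPKM in the same order. The 3 alpha-amylases with a value, enzymes of starch digestion, lay over the upper limit of 1000 FPKM with log2 ratios of -1.28 to -1.19, and the fourth, TC000936, was listed at 0 in both libraries. Odorant binding proteins carry small hydrophobic molecules. Of the 2 named, TC010063 passes the filter at 44.1 FPKM under hypoxia and 132.0 FPKM in normoxia, and TC010066, at 211.5 FPKM under hypoxia and 2227 FPKM in normoxia, was more than 4-fold lower but lay above the upper limit.

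Among the 50 genes, 16 had no assembled transcript in either library (32.0%, beside 32.6% of the filtered genes), and for these the summed, weighted and reference values are the same number. They include some of the lowest ratios. TC001770 was at 0.472 FPKM under hypoxia (0.0866 to 0.857) and at 23.4 FPKM in normoxia (20.5 to 26.3), a log2 ratio of -5.36 with a range from -6.35 to -4.37. It has 8 exons and 1602 coding bases on ChLGX (10622760 to 10626216). TC016377, a single-exon gene of 1098 bases on ChLG7 (9462555 to 9463652), was at 0.364 FPKM under hypoxia (0 to 0.785) and 13.2 FPKM in normoxia (10.5 to 15.9). TC003047 was at 13.9 FPKM under hypoxia (4.94 to 22.9), against 281.5 FPKM in normoxia (239.7 to 323.3), the highest normoxia level of the 16. With 249 coding bases it is also among the shortest.

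The others of the 16 had hypoxia levels of 1.48 to 27.7 FPKM and log2 ratios between -2.82 and -2.01. TC001175 was at 4.43 FPKM under hypoxia and 31.9 FPKM in normoxia, TC000639 at 4.38 and 26.7 FPKM in the same order, and TC007326 at 2.99 and 18.2 FPKM. Cufflinks marked the reference transcript as supported by reads over its whole structure in 9 of the 16 genes under hypoxia and in 13 in normoxia. For the filtered genes without assembled transcripts the marked shares were 77.0% under hypoxia and 76.1% in normoxia. In 5 of the 16 the mark was present in normoxia alone, among them TC001770.

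The remaining 34 genes had an assembled transcript in at least 1 library: 18 in both, 16 in normoxia alone and 0 in hypoxia alone. Over the filtered genes, 48.9% had assembled transcripts in both libraries, 8.62% in hypoxia alone and 9.86% in normoxia alone. Assembled transcripts held 23.9% of the summed FPKM of the 50 genes under hypoxia and 66.5% in normoxia, beside 36.0% and 36.2% over the filtered genes. As the libraries were assembled separately, a gene's sum could hold different transcripts in each. By the weighted level, 32 of the 50 genes were at least 4-fold lower under hypoxia, 6 were between 2- and 4-fold lower and 12 were under 2-fold, of which 3 had a log2 ratio above 0. The weighted rule calls 34 genes, 0.490% of those that pass the filter, so 2 of its calls lie outside the 50.

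Several genes with assembled transcripts kept a 4-fold difference by the weighted level. TC007207, a single-exon gene of 744 bases on ChLG4 (8591782 to 8592525), was at 0.393 FPKM under hypoxia and 41.2 FPKM in normoxia. Its reference transcript alone was at 0.393 FPKM under hypoxia and 6.88 FPKM in normoxia, and its weighted log2 ratio was -5.47. TC014184 on ChLGX had 4.85 FPKM under hypoxia and 90.9 FPKM in normoxia. Its reference transcript was at 1.86 and 35.0 FPKM in the same order. In each library 1 assembled transcript covered all of its coding bases, at 2.99 and 55.9 FPKM, which gave nearly the same ratio.

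TC002761 was at 0.702 FPKM under hypoxia and 12.1 FPKM in normoxia, with a weighted log2 ratio of -3.67. TC012546 was at 2.26 FPKM under hypoxia and 20.9 FPKM in normoxia, and TC003944 at 29.3 and 199.7 FPKM in the same order. For TC015245, TC015589, TC010419 and TC006978 the reference transcript was listed at 0 in both libraries, so their whole value came from assembled transcripts. The same held for TC010858, but its weighted level was 4.18 FPKM under hypoxia and 4.39 FPKM in normoxia, a log2 ratio of -0.07. TC015589, whose 5 exons spread over 33873 bases of ChLG6, was at 5.85 FPKM under hypoxia and 45.3 FPKM in normoxia, and its assembled transcripts covered 78.4% of the coding bases in both libraries. TC015245 was at 1.18 FPKM under hypoxia and 16.4 FPKM in normoxia, and its weighted log2 ratio was -2.80. TC010304, on unplaced sequence, was at 6.24 FPKM under hypoxia and 63.3 FPKM in normoxia, and its weighted log2 ratio of -2.05 left it close to the threshold.

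In other genes a short assembled transcript of the normoxia library held the sum. For 15 of the 50 genes, over 50% of the normoxia level was 1 assembled transcript shorter than 50% of the coding length, with lengths of 223 to 1276 bases, and in 12 of the 15 that transcript reached past an end of the coding model. The same was true of 0 of the 50 in the hypoxia library. Among all filtered genes such a transcript held the normoxia level of 256 (3.69%) and the hypoxia level of 244 (3.52%), and among the 32 raised genes it held the hypoxia level of 11 and the normoxia level of 0. By the weighted level 3 of the 15 were at least 4-fold lower under hypoxia and 11 were under 2-fold. The part of separate assembly in these ratios was not tested beyond these values.

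The gene TC003097, the highest of the 50 in both libraries, is such a gene. Its level was 106.8 FPKM under hypoxia (101.4 to 112.1), all in the reference transcript of 26 exons, and 641.7 FPKM in normoxia (609.3 to 674.0), all in 1 assembled transcript of 4 exons and 1125 bases that covers 18.1% of the coding bases. The reference transcript was listed at 0 in normoxia. Weighted by the bases covered, the levels were 106.8 FPKM under hypoxia and 115.9 FPKM in normoxia, a log2 ratio of -0.12. TC003310, with 14 exons, was at 11.1 FPKM under hypoxia and 65.4 FPKM in normoxia by the sum and at 11.1 and 10.1 FPKM in the same order by the weighted level.

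TC013716, which has the longest coding sequence of the 50 at 9558 bases, had 4.58 FPKM under hypoxia and 29.2 FPKM in normoxia by the sum, and 5.06 and 4.88 FPKM in the same order by the weighted level. TC005222 reached the highest weighted log2 ratio of the 50, 0.54: its normoxia transcript of 13.3 FPKM shared 15 bases with the coding sequence. TC005316 was at 24.9 FPKM under hypoxia and 103.9 FPKM in normoxia by the sum, and at 24.9 and 25.4 FPKM by the weighted level. By the weighted level these 5 genes thus differed by less than 2-fold between the libraries.

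TC009833, TC008593 and TC007723, which rank among the 10 highest in normoxia, also had weighted log2 ratios above -2. TC009833 was at 30.5 FPKM under hypoxia and 216.2 FPKM in normoxia, but its reference transcript was at 30.5 and 33.5 FPKM in the same order, and the weighted log2 ratio was -0.97. TC008593 was at 17.6 FPKM under hypoxia and 117.1 FPKM in normoxia, with a weighted log2 ratio of -1.53 and a reference transcript listed at 0 in normoxia. TC007723 was at 14.97 FPKM under hypoxia and 76.1 FPKM in normoxia, with a weighted log2 ratio of -0.49.

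**Figure D2:**
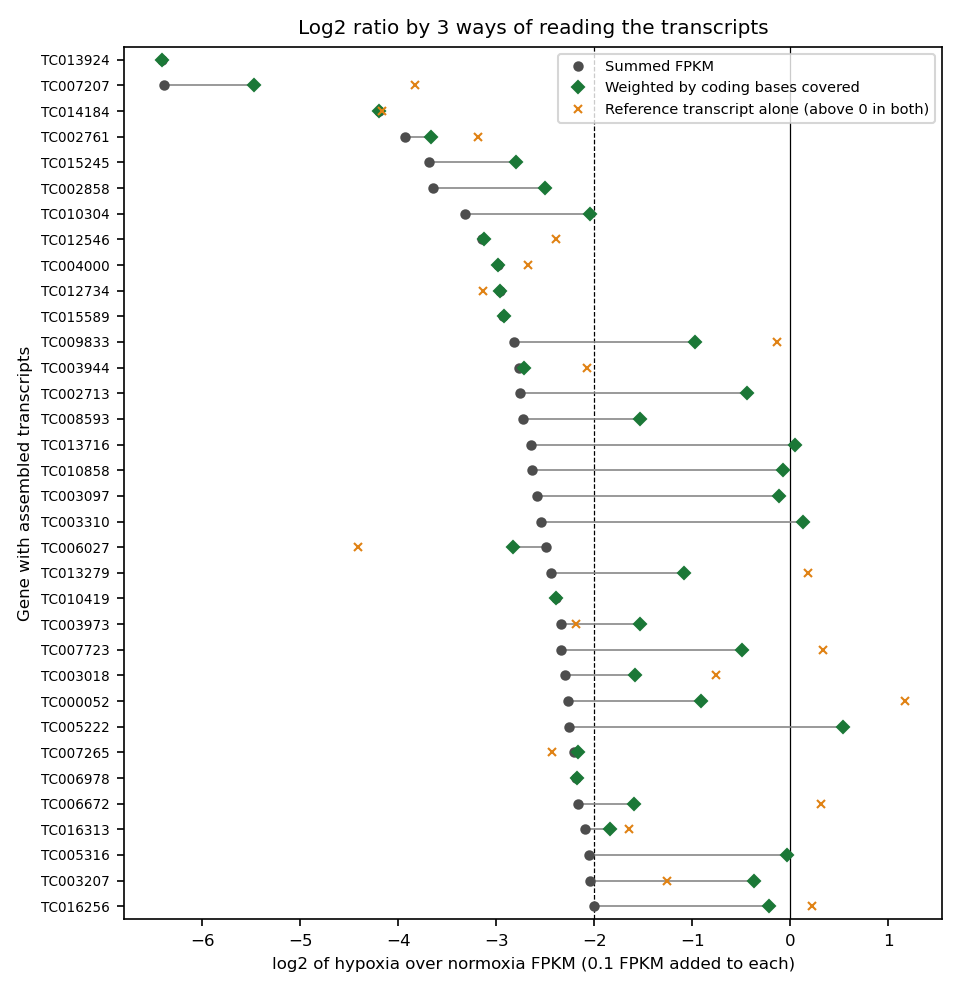
Log2 ratio of hypoxia over normoxia for the 34 genes with assembled transcripts, by summed FPKM (circles), by FPKM weighted by the coding bases covered (diamonds) and by the reference transcript alone where it is above 0 in both libraries (crosses); the dashed line marks -2. Summed values are all at -2 or lower by the rule, and 16 of the 34 weighted values stay there while 12 lie above -1.

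By the reference transcript alone, 35 of the 50 genes had a value above 0 in both libraries. Of these 26 were at least 4-fold lower under hypoxia, 4 were lower by less and 5 had a log2 ratio above 0. This rule calls 79 of the 5205 filtered genes with such a value, 1.52%. The reference transcript was listed at 0 in hypoxia alone for 6 of the 50, in normoxia alone for 4 and in both libraries for 5. Over the 6935 filtered genes the same counts were 391, 448 and 891. A reference value taken against a listed 0 has a size set by the added 0.1 FPKM and is not read as a fold.

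Of the 50 genes, 6 (12.0%, beside 8.55% of the filtered genes) had an assembled transcript that joined them to another gene. The lowest ratio of all, that of TC013924 on ChLG5 (3021056 to 3027689), was of this kind. It was at 3.36 FPKM under hypoxia, all in the reference transcript, and at 295.3 FPKM in normoxia, all in 1 assembled transcript of 15 exons that also covers TC013925. Its partner TC013925 was at 2577 FPKM under hypoxia and 2150 FPKM in normoxia. The pair summed to 2580 FPKM under hypoxia and 2445 FPKM in normoxia, a log2 ratio of 0.08. The partner holds most of that sum, so the pair could not show a loss of TC013924 by itself. The weighted log2 ratio of TC013924 was -6.42, the same as the summed one, since the joined transcript covers all of its coding bases. The reference transcript of TC013924 was listed at 0 in normoxia, and whether its own reads were lower cannot be told from these values. For TC012734 and TC015589 the partner was listed at 0 in both libraries and the pair had the same ratio as the gene. For TC004000, at 3.14 FPKM under hypoxia and 25.4 FPKM in normoxia, the pair with TC003999 had a log2 ratio of -1.62 in place of -2.98. The pairs of TC003973 and TC003207 had log2 ratios of -1.64 and -1.95.

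The 50 genes were spread over the genome of the files, whose build is not given in the sources used here. They lay on ChLGX, on ChLG2 to ChLG9 and on unplaced sequence, with 26 on the plus strand and 24 on the minus strand, and 0 of the 265 filtered genes on ChLG10 was among them. ChLG3 held 14 of the 50 (28.0%, against 11.6% of the filtered genes), or 1.73% of its 807 filtered genes. By count ChLG7 followed with 6 (12%, against 12.6% of the filtered genes), and ChLG2 had 2 of 684. By share of their own filtered genes, unplaced sequence (1.03%), ChLGX (0.915%) and ChLG6 (0.825%) came before ChLG7 (0.688%). The 14 genes on ChLG3 ran from base 219795 to base 36024527, and 4 of them lay past base 34000000, where 79 of the 807 filtered genes of ChLG3 (9.79%) lie, a stretch chosen after the positions were seen. By the weighted level 7 of the 14 were at least 4-fold lower, and ChLG3 held 20.6% of the 34 genes called by that level.

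**Figure D3:**
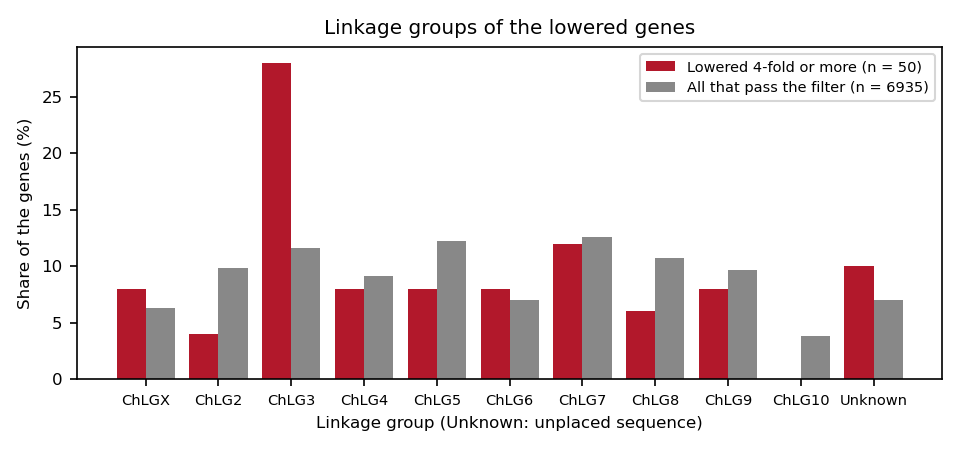
Share of the 50 lowered genes (red) and of the 6935 genes that pass the filter (grey) on each linkage group and on unplaced sequence, in percent. ChLG3 holds 28.0% of the lowered genes and 11.6% of the filtered genes, and ChLG10 holds none of the lowered genes.

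No runs of neighbouring genes were found among the 50. Counted in the gene order of the files, 0 of the 45 placed on a linkage group stood beside another, also when up to 5 other genes were allowed between them, and the closest pair on a linkage group, TC003973 and TC003981 on ChLG3, had 19 genes between them. The median over 36 successive pairs was 144.5 genes. The 50 are a small share of the 16542 TC genes, so neither the 0 nor this median shows a difference in spacing. Among the 32 raised genes 0 were adjacent, and 2 formed 1 run when 1 other gene was allowed between. At a 2-fold threshold, 294 filtered genes (4.24%) were lower and 17 of them formed 8 runs of adjacent genes, 1 of which contains 1 of the 50.

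That run was TC015722 with TC015723 on ChLG6. TC015722 was at 12.2 FPKM under hypoxia and 49.8 FPKM in normoxia, and TC015723, on the same strand 1310 bases further on, was at 24.1 and 56.9 FPKM in the same order. On its other side TC015721, under the filter, was at 0.662 FPKM under hypoxia and 1.71 FPKM in normoxia. TC015720, the second gene back, passes the filter at 24.8 FPKM under hypoxia and 51.8 FPKM in normoxia. These 4 consecutive genes were thus at least 2-fold lower in the hypoxia library. TC015719, the third gene back, was at 74.1 FPKM under hypoxia and 7.52 FPKM in normoxia, and TC015725, the third gene on, at 13.4 and 5.82 FPKM in the same order.

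The filtered genes directly beside the 50 were close to all filtered genes. Of the 100 adjacent genes, 43 pass the filter. Their log2 ratios ran from -1.23 to 2.15 with a median of -0.04, beside -0.07 over all filtered genes. Of these 43, 2 were at least 2-fold lower, beside 4.24% of all filtered genes, and 2 at least 2-fold higher. Of the adjacent genes outside the filter, 39 were above 0 in at least 1 library, and of these 13 (33.3%) were at least 2-fold lower and 3 (7.69%) at least 2-fold higher. Over all 5001 such genes outside the filter the shares were 26.3% lower and 16.2% higher. A further 18 adjacent genes were listed at 0 in both libraries. Of the 126 filtered genes up to 3 places away, 0 were 4-fold lower, beside 0.721% of all filtered genes. With so small a share, 126 genes are too few for that 0 to show a difference. TC003047 is an example of a gene that differed from the genes directly beside it. Its neighbour TC003048 was at 511.6 FPKM under hypoxia and 535.0 FPKM in normoxia. On its other side TC003046 was at 5135 FPKM under hypoxia and 4847 FPKM in normoxia. Both neighbours lie on the strand of TC003047. Further off, TC003044, 3 places on, was at 7420 FPKM under hypoxia and 2990 FPKM in normoxia. TC003385, 3 places back, was at 19.6 and 38.3 FPKM in the same order.

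Some low neighbours went the same way. TC012547, on the same strand as TC012546 and 2669 bases from it, was at 0.245 FPKM under hypoxia and 5.70 FPKM in normoxia. TC016376, 365 bases from TC016377 on the same strand, was listed at 0 under hypoxia and at 3.57 FPKM in normoxia. Beside TC010023, at 1.89 FPKM under hypoxia and 10.6 FPKM in normoxia, TC010024 was at 2.24 and 5.01 FPKM in the same order, and TC008805 on the other strand was listed at 0 under hypoxia and at 6.25 FPKM in normoxia. The opposite was seen on unplaced sequence, where gene order is that of the files: TC005140, 36271 bases from TC010304, was at 98.5 FPKM under hypoxia and 22.1 FPKM in normoxia. Of the 50 genes, 1 (2%, beside 4.73% of the filtered genes) overlapped a gene of the other strand: TC003981, at 4.62 FPKM under hypoxia and 25.02 FPKM in normoxia, lies inside TC002441, at 524.5 and 721.9 FPKM in the same order. As the preparation kit named in the labels is not stated to keep strand, reads of the 2 genes cannot be told apart with certainty.

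**Figure D4:**
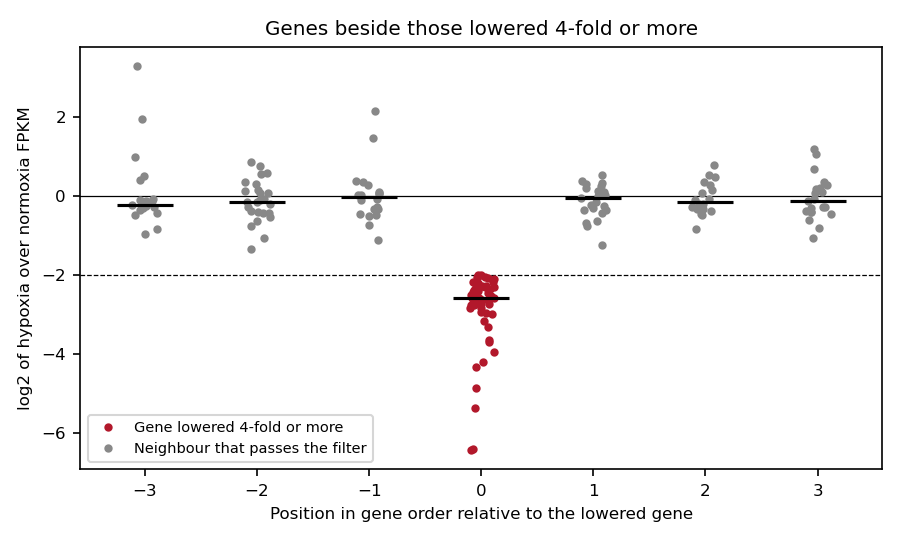
Log2 ratio of hypoxia over normoxia FPKM of the 50 lowered genes (red, position 0) and of the genes 1 to 3 places before and after them that pass the filter (grey), with medians as black bars and -2 as the dashed line. The medians of the neighbouring positions lie between -0.24 and -0.02.

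The medians of gene structure, which the rule did not use, were close to those of the filtered genes. The median number of exons was 4 in both, and 5 of the 50 (10%) had a single exon, beside 632 of the 6935 (9.11%). The coding length had a median of 1166 bases in the 50 genes, with quartiles of 804 and 1794, and a median of 1266 bases, with quartiles of 777 and 1986, over the filtered genes. The span on the genome, introns included, had a median of 2548 bases in the 50 and 2705 bases over the filtered genes. The raised genes were shorter, with a median coding length of 637.5 bases and 2.5 exons. The largest structures belonged to TC003097, with 26 exons over 35059 bases, and to TC015589, with 33873 bases.

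Within the 50, structure went with the way the value arose. The 16 genes without assembled transcripts had a median coding length of 961.5 bases, a median span of 1194 bases and 0 spans over 10000 bases. The 34 genes with assembled transcripts had medians of 1183.5 and 5997 bases, and 12 of them (35.3%) spanned over 10000 bases. The filtered genes were split in the same way, with a median span of 1278 bases and 3.75% over 10000 bases in those without assembled transcripts, and 3809 bases and 20.3% in those with them. All 3 genes with coding lengths under 300 bases, TC003047, TC016021 and TC015735, had no assembled transcript.

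**Figure D5:**
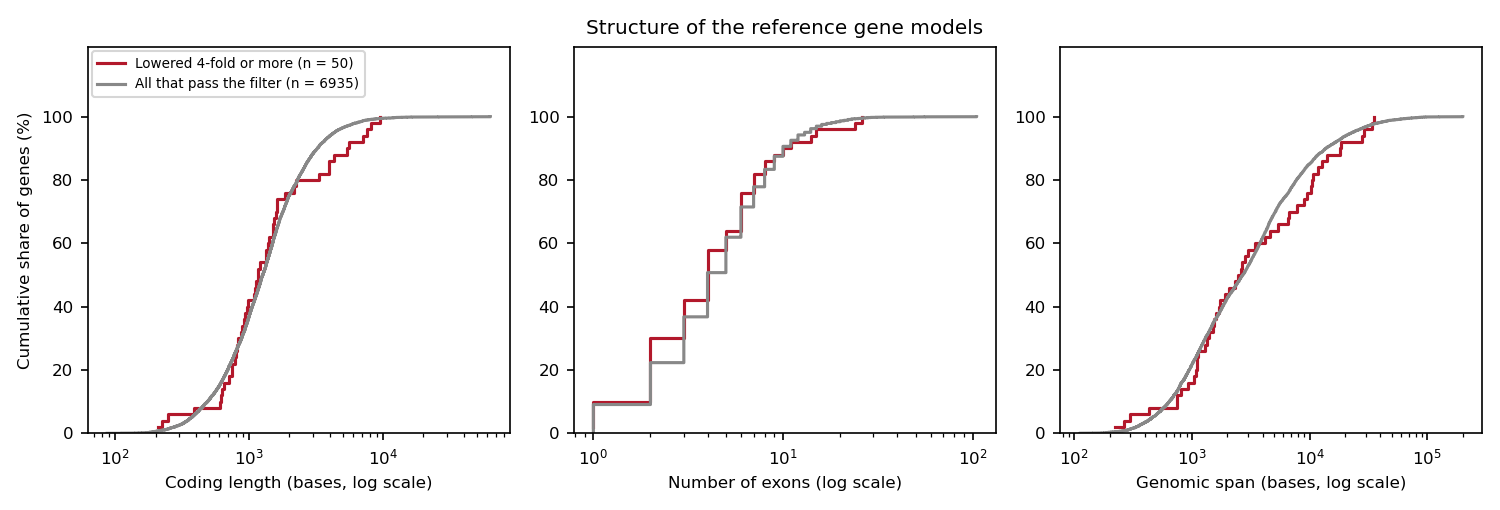
Cumulative share of genes by coding length, number of exons and genomic span of the reference models, each on a log axis, for the 50 lowered genes (red) and the 6935 genes that pass the filter (grey). The curves lie close together up to their medians (1166 and 1266 coding bases), and the red curve for span runs below the grey one above 10000 bases.

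The threshold cut through a continuous range of ratios. The 3 genes just inside it were TC015722 at -2.02, TC016278 at -2.01, with 2.86 FPKM under hypoxia and 11.8 FPKM in normoxia, and TC016256 at -2.002, with 14.5 and 58.2 FPKM in the same order. The 3 just outside were TC007687 at -1.98, with 36.0 FPKM under hypoxia and 142.4 FPKM in normoxia, TC015699 at -1.97, with 22.7 and 89.2 FPKM in the same order, and TC009442 at -1.97, with 2.49 and 10.04 FPKM. The ranges of 2 standard errors of these summed ratios all include -2, so membership at this edge was within the error of a single library. By the weighted level TC016256 was at 14.5 FPKM under hypoxia and 16.8 FPKM in normoxia, a log2 ratio of -0.21. TC015699 was at 21.8 and 20.2 FPKM in the same order, a log2 ratio of 0.11. For the others at this edge the weighted ratio equalled the summed one.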

How the data were processed

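The authors assembled each library separately with Cufflinks around reference transcripts and deposited the FPKM and interval of every transcript; the deposited values are used unscaled. For the Cufflinks version, the aligner, the genome build and the annotation: not given in the sources used here. The files hold 17071 reference transcripts each, and 7423 assembled transcripts under hypoxia and 7674 in normoxia, of which 6654 and 6895 were given to a gene on their strand. Transcripts without a strand (500 and 502) entered no gene. Before log2 ratios were taken, 0.1 FPKM was added to each value, so folds of low genes are understated. Errors of transcripts were combined as the root of summed squares. Read counts per gene are not in the files, and the study's library totals were not used here.

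Named were members with a name in the study, the 15 lowest ratios, the 10 highest in normoxia, 3 genes on either side of the threshold and the largest structures. Members and lists were chosen with earlier results of these data known. Alternatives were other pseudocounts, filters, scalings, thresholds and ways to read a gene's transcripts. Scripts were tested on simulated data. Python 3.11.15, numpy 2.4.6, pandas 2.3.3 and scipy 1.17.1 were used.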

Additional observations from a re-analysis of the deposited data

How the results depend on the processing

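The number of genes at least 4-fold lower, 50, became 118 with a mean of 1 FPKM or more, 33 with a mean of 10 FPKM or more, 160 with no filter on low values, 214 with genes listed at 0 in hypoxia kept, 11 at 8-fold and 294 at 2-fold. The other alternatives gave 37 to 75, but with the reference transcript alone 21 of 64, and with the transcript of the highest mean FPKM 25 of 75, were among the 50. The weighted level, chosen after seeing the data, gave 41 genes with 31 among the 50 when its own levels were filtered. Genes in runs numbered 2 (TC009947 and TC009948) when members were chosen by the reference transcript alone. At 8-fold, 27.3% had a single exon, the median was 2 exons and the median span 1108 bases. Members by the weighted level had a median coding length of 888 bases. Among the 26 named genes, by the reference transcript alone and by the transcript of the highest mean FPKM, the log2 ratio changed sign to 5.11 at TC013924, 3.09 at TC002858, 10.06 at TC003097, 7.47 at TC008593, 0.34 at TC007723 and 0.23 at TC016256. By the weighted level, on the strand or on either strand, it was 0.0516 at TC013716. Of the genes not named by the rule, TC013279, TC000052 and TC006672 had reference log2 ratios of 0.18, 1.17 and 0.32, and TC003310 and TC005222 weighted ones of 0.13 and 0.54. The reference ratios of the first 4 are against a listed 0. At TC006672 the reference ratio leaves out a normoxia assembled transcript of 69.9% of the coding length. The others follow from leaving out or scaling down a short assembled transcript. Centring on the median would add 0.07 to every log2 ratio. No paired analysis was possible because there is 1 library per condition. The intervals of the libraries overlapped at TC016021 and TC015735, both under 300 bases.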

Other observations

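Of the 230 genes over the upper limit of 1000 FPKM, 3 were at least 4-fold lower under hypoxia. TC012207, a single-exon gene of 1140 bases on ChLG9, was at 47.8 FPKM under hypoxia and 6156 FPKM in normoxia. TC009480 on ChLG7 was at 41.5 FPKM under hypoxia and 7228 FPKM in normoxia, all in assembled transcripts, and its weighted log2 ratio was -8.06. TC010066, an odorant binding protein of the minus-C subfamily, was at 211.5 FPKM under hypoxia and 2227 FPKM in normoxia, with no assembled transcript. A further 164 genes with a mean of 5 to 1000 FPKM were listed at 0 under hypoxia, and 100 such genes were listed at 0 in normoxia.

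Assembled transcripts without a strand were given to no gene in the report. When they were given to the gene that they overlap, an alternative chosen after seeing the data, 55 genes were at least 4-fold lower, the 50 and 5 more: TC002966, TC008623, TC010908, TC011602 and TC015130. TC002966 was then at 4.27 FPKM under hypoxia and 72.3 FPKM in normoxia, against 4.27 and 4.17 FPKM in the same order on its strand. TC015130 was then at 258.4 FPKM under hypoxia and 1459 FPKM in normoxia, against 258.4 and 101.3 FPKM on its strand.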
